A study of Caenorhabditis elegans with 4 samples.

Results

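The HDA-1 peaks of chromosome III are described here, 2323 of the 14199 peaks (16.4%) that the peak list of the whole series (the series-wide list) holds for Caenorhabditis elegans at the L3 larval stage. They are all peaks that the authors placed on chromosome III. Of the lists for single ChIP libraries, replicate 1 had 1899 of 11762 peaks (16.1%) on III and replicate 2 had 1707 of 9901 (17.2%). The chromosome spanned 13.8 Mb, measured to the last base of its last peak, which is 13.7% of the 6 nuclear chromosomes. The worms were N2, the standard wild-type strain with no transgene, grown at 20 °C and harvested as a mixed population of males and hermaphrodites. Chromatin was crosslinked with EGS for 20 minutes and then with EGS plus formaldehyde for 10 minutes, and was precipitated with SDQ2354, a polyclonal rabbit antibody, purified by affinity, against HDA-1. The 2 ChIP libraries and 2 input DNA libraries share the strain, the growth and the crosslinking, while the precipitation applies to the ChIP libraries. The inputs were not analysed here. Whole larvae were used, so a peak cannot be assigned to a tissue. The labels do not say if each replicate was a culture of its own.

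HDA-1, a histone deacetylase of class I, takes acetyl groups off histone tails and so tends to close chromatin. It has no sequence-specific DNA-binding domain of its own and is brought to DNA by corepressor complexes such as NuRD and SIN3 and by the transcription factors they bind. Because EGS is a long-arm crosslinker between proteins, a peak can mark DNA that HDA-1 reaches only through partners. C. elegans autosomes have a centre with low recombination and many broadly expressed genes, and 2 arms with higher recombination, more repeats and more H3K9-methylated heterochromatin. The genes under the peaks were not analysed here, because the only gene table given has coordinates of a different build, and the sites are therefore named by their WS220 (ce10) coordinates.

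Chromosome III carried 138 HDA-1 peaks per Mb in replicate 1 (interval 132 to 144), 124 in replicate 2 (118 to 130) and 169 in the series-wide list (162 to 176). It was chosen for being the densest chromosome, so this is a description and not a test. Density on the other 4 autosomes, pooled, was 110, 96.2 and 134 per Mb, which puts III at 1.25, 1.29 and 1.26 times their density. That pool is lowered by IV and V. Chromosome I, the nearest to III, had a density of 135, 114 and 164 per Mb in the same order of lists, of which the first and the last lie inside the intervals of III. Chromosome II had 129, 114 and 156. Peaks covered 4.59% of III in replicate 1, 3.43% in replicate 2 and 5.58% in the series-wide list. Intervals here and below are exact 95% intervals. They cover counting error only and treat neighbouring peaks as independent, so they are too narrow for clustered peaks. With 2 libraries of a single group no test over samples was possible, and the replicates are given side by side.

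HDA-1 peaks were found along the whole of III, with no complete 1-Mb bin below 84 peaks in replicate 1, 96 in replicate 2 or 119 in the series-wide list. Over the 13 complete bins the median was 150 peaks in replicate 1, 123 in replicate 2 and 164 in the series-wide list. The replicates drew different profiles. Replicate 1 stepped up between the third and the fourth bin, from 90 peaks at 2000001 to 3000000 to 152 peaks at 3000001 to 4000000, where replicate 2 had 111 and 126. The bin from 5000001 to 6000000 was the densest complete bin in the series-wide list with 213 peaks, and it held 199 in replicate 1 and 149 in replicate 2. It lies in the chromosome centre, as does the next in replicate 1, from 8000001 to 9000000, with 181 peaks against 123 in replicate 2 and 191 in the series-wide list. The second densest in the series-wide list ran from 10000001 to 11000000, across the border to the right arm, with 204 peaks (156 and 141 in the replicates).

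The sparsest complete bins were near the left end in the series-wide list and in replicate 1, but not in replicate 2. That from 1 to 1000000 held 119 series-wide peaks, 85 in replicate 1 and 99 in replicate 2. That from 2000001 to 3000000 held 129, 90 and 111. Between them, the bin from 1000001 to 2000000 had the ratio of replicate 1 to replicate 2 peaks farthest below 1, at 0.60, with 84 peaks in replicate 1 and 141 in replicate 2. The bin from 6000001 to 7000000, in the centre, had the ratio farthest above 1, at 1.56, with 150 in replicate 1 and 96 in replicate 2. Those 96 were the fewest of any complete bin in replicate 2. With 152 in the series-wide list this bin was the third sparsest there, equal to the bin from 1000001 to 2000000. Across the 14 bins, which share the same libraries, peaks per Mb in the replicates had a Spearman correlation of 0.28 and a Pearson correlation of 0.29.

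**Figure D1:**
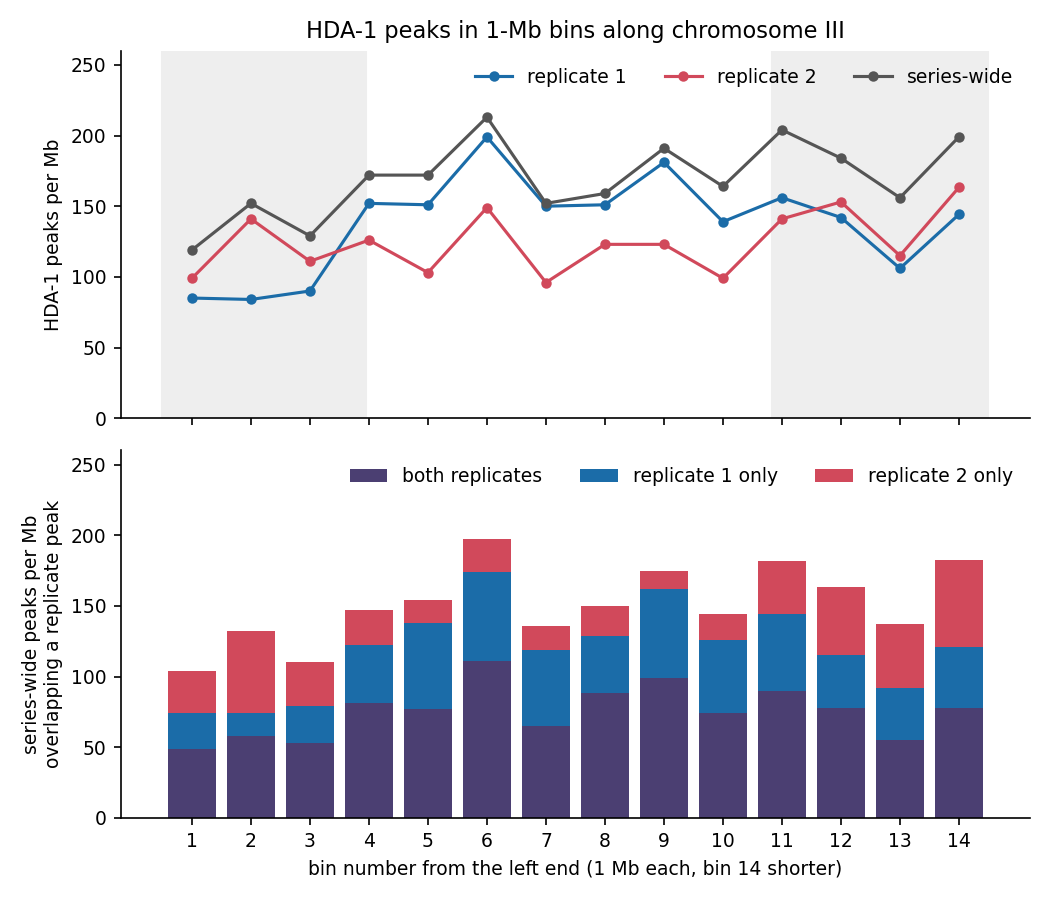
HDA-1 peaks per Mb (y axis) in 14 consecutive bins of chromosome III (x axis), with the arms shaded, for each peak list (top), and series-wide peaks per Mb by the replicates they overlap (bottom). Replicate 1 exceeds replicate 2 in bins 4 to 11 and is below it in bins 1 to 3 and 12 to 14; peaks found in both replicates make up the largest part of every bin except bin 2, where 58 were found in both and 58 in replicate 2 only.

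HDA-1 peaks were sparser on the left arm of III than on its right arm in both replicates, while arms and centre compared differently in each. The left arm, the outer 25% from base 1 to 3445925, had 87.9 peaks per Mb in replicate 1 (78.3 to 98.4), 115 in replicate 2 (104 to 127) and 134 in the series-wide list (122 to 147). The right arm, from 10337776 to 13783700, had 137 (125 to 150), 145 (133 to 159) and 187 (173 to 202). The right arm thus had 1.56 times the density of the left in replicate 1 (interval 1.35 to 1.81), 1.26 times in replicate 2 (1.10 to 1.44) and 1.40 times in the series-wide list (1.24 to 1.58). Chromosome II had the same order of its arms, with a log2 ratio of right to left of 0.87 and 0.56 in the replicates, beside 0.64 and 0.33 on III. Over the other 4 autosomes it ranged from -0.75 to 0.87 in replicate 1 and from -0.90 to 0.56 in replicate 2, so III lies inside the range of the other chromosomes.

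The centre of III, the middle 50%, had 163 peaks per Mb in replicate 1 (154 to 173), 117 in replicate 2 (109 to 126) and 176 in the series-wide list (167 to 187). In replicate 1 both arms were sparser than the centre, the left at 0.54 times its density (0.47 to 0.61) and the right at 0.84 times (0.75 to 0.94). In replicate 2 the left arm was at 0.99 times (0.87 to 1.11) and the right arm at 1.24 times (1.11 to 1.39). The log2 ratio of arms to centre was -0.53 in replicate 1 (-0.67 to -0.40) and 0.15 in replicate 2 (0.015 to 0.29), a difference of 0.69. The difference had the same sign on the other 4 autosomes, where it ranged from 0.38 to 0.68, and on X, at 0.37, so the disagreement of the replicates is not a trait of III. It was -0.14 in the series-wide list. On III the order of regions whose counting intervals stayed clear of equal density in the same direction in both replicates was right arm over left arm.

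**Figure D2:**
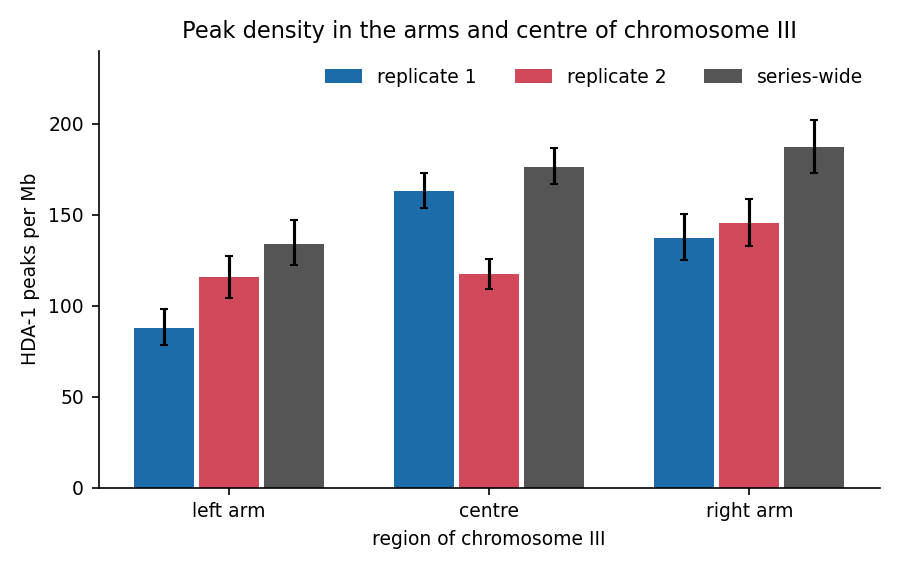
HDA-1 peaks per Mb (y axis) in the left arm, centre and right arm of chromosome III (x axis) in each peak list; bars are densities and whiskers exact 95% counting intervals. The centre is the highest of the regions in replicate 1, at 163 peaks per Mb, and the right arm in replicate 2, at 145; the left arm is the lowest in every list, level with the centre in replicate 2.

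More than 50% of the HDA-1 peaks on III were seen again in the other library. Replicate 2 held a peak overlapping 1053 of the 1899 replicate 1 peaks (55.5%, interval 53.2 to 57.7%, with 1 bp enough to count), against 51.5% over all chromosomes. Replicate 1 held one overlapping 1114 of the 1707 replicate 2 peaks (65.3%, interval 62.9 to 67.5%), against 65.2% over all chromosomes. The share for replicate 2 is thus the background share. The share for replicate 1 was above the range of the other 4 autosomes, 50.8 to 54.4%, and was not tested against them. The upper end of that range lies inside the interval of III, and X, at 44.3%, lowers the share over all chromosomes. Recurrent peaks were wider and scored higher than the rest. In replicate 1 their median width was 332 bp against 208 bp and their median score 16.3 against 6.21. In replicate 2 the widths were 247 and 181 bp and the scores 11.7 and 6.46. A wider peak more easily shares 1 bp with another, so the rule itself favours wide peaks, and its part was not tested. The score is the authors' own value for each peak, and no source at hand says what it measures.

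Where a replicate 2 peak lay on III went with whether it was found again. In the centre, 647 of 808 replicate 2 peaks recurred in replicate 1 (80.1%, interval 77.2 to 82.8%). On the left arm 194 of 398 did (48.7%, 43.7 to 53.8%), and on the right arm 273 of 501 (54.5%, 50.0 to 58.9%). The replicate 1 peaks showed no such gap, with 53.6% recurring in the centre (50.6 to 56.6%), 61.4% on the left arm (55.6 to 66.9%) and 56.0% on the right (51.4 to 60.6%). The centre exceeded the arms by 28.1 percentage points in replicate 2. The same difference was 16.9 to 31.5 points on the other 4 autosomes, so it is not particular to III. By bins, the recurrent share of replicate 2 peaks was highest from 8000001 to 9000000, with 110 of 123 (89.4%), and lowest from 1000001 to 2000000, with 59 of 141 (41.8%).

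The gap between centre and arms in replicate 2 was present at each level of score and narrowest at the top. Each list of III was cut by score into 4 bands of 25% of its peaks. In the lowest band of replicate 2, 63.9% of centre peaks recurred (56.6 to 70.7%) against 29.7% of arm peaks (23.9 to 35.9%). In the second best band these were 87.2% (81.8 to 91.5%) and 55.8% (49.0 to 62.4%). In the best band they were 97.2% (94.1 to 99.0%) and 90.9% (86.2 to 94.4%). Shares this near their maximum leave little room for a gap in points. In replicate 1 the lowest band went the other way, with 22.6% of centre peaks (17.8 to 27.9%) and 35.7% of arm peaks (29.0 to 42.9%), and the best band had 89.6% and 92.6%. Replicate 1 peaks covered 5.49% of the centre, 2.91% of the left arm and 4.46% of the right arm, so a replicate 2 peak had more replicate 1 sequence to meet in the centre, and the part of this in the result was not tested.

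**Figure D3:**
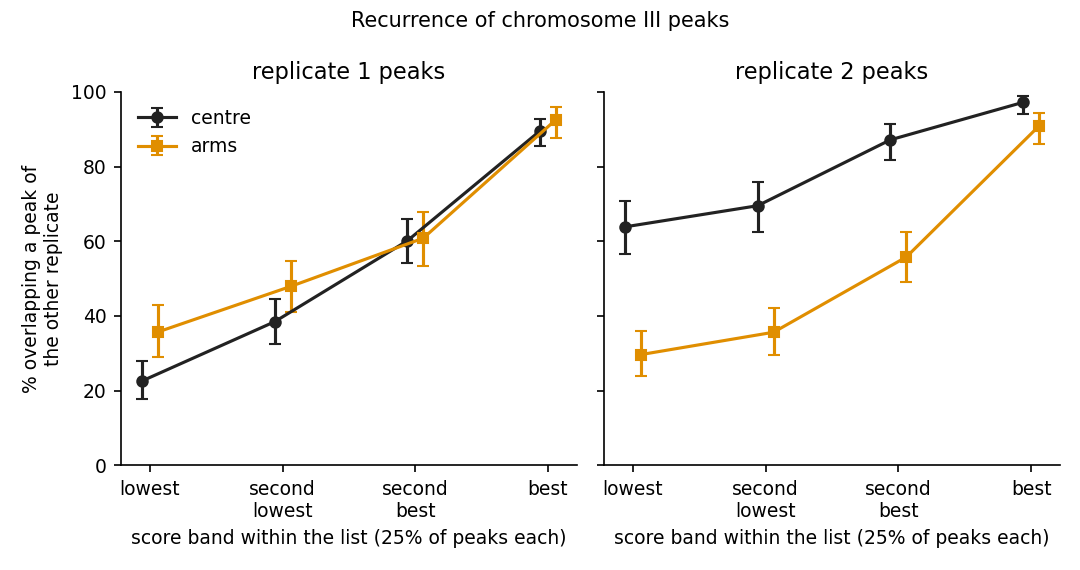
Share of chromosome III peaks that overlap a peak of the other replicate (y axis, %), by band of score within the list (25% of peaks each) (x axis), for centre (circles) and arms (squares); whiskers are exact 95% counting intervals. For replicate 2 peaks the centre lies above the arms in each band, 63.9% against 29.7% in the lowest; for replicate 1 peaks the lines lie close together from the second best band on.

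The peaks not found again in the other library show where the replicates part. The 593 such peaks of replicate 2 lay mostly in the arms, 204 on the left, 228 on the right and 161 in the centre, which is 62.7 per Mb in the arms and 23.4 per Mb in the centre. The 846 of replicate 1 were at 47.2 per Mb in the arms and 75.6 in the centre. Recurrent peaks, counted in replicate 1, were at 54.0 per Mb on the left arm, 87.3 in the centre and 76.9 on the right arm. Counting them in replicate 2 gives nearly the same sites by definition, and so adds no second measurement.

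Overlapping peaks of the 2 replicates were paired. Overlap by itself keeps midpoints close, so their distance is no test of agreement. In 1033 pairs, each peak had its largest overlap with the other, and the midpoints were a median of 44 bp apart, and 92.5 bp at the upper quartile. The replicate 1 peak was the wider in 737 of them (71.3%), with a median of 334 bp against 250 bp. This share was 77.3% in the centre, 66.4% on the right arm and 58.9% on the left arm. The scores of the pairs correlated with a Spearman rho of 0.53, and with 0.62 on the left arm, 0.54 in the centre and 0.50 on the right arm. Pairs share their libraries and are not independent replicates. Some sites were 1 peak in one library and several in the other, since 80 replicate 1 peaks overlapped more than 1 replicate 2 peak, at most 4, and 30 replicate 2 peaks overlapped more than 1 replicate 1 peak.

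Among the 2323 series-wide peaks of III, 1039 (44.7%, interval 42.7 to 46.8%) overlapped a peak of both replicates, against 41.9% over all chromosomes. Replicate 1 alone matched 604 (26.0%), replicate 2 alone 431 (18.6%), and 249 (10.7%) had no match in either. Median score and width were 19.9 and 386 bp for peaks found in both, 7.35 and 210 bp for replicate 1 only, 6.64 and 192 bp for replicate 2 only, and 4.75 and 164 bp for neither. The share found in both was 95.5% in the best-scoring 25% and 3.96% in the lowest. It was 49.3% in the centre (46.4 to 52.1%), 39.4% on the left arm (34.9 to 44.0%) and 40% on the right arm (36.2 to 43.9%). Peaks found in replicate 2 only made up 28.8% of the left arm, 26.7% of the right arm and 10.4% of the centre. The making of the series-wide list is not described in the sources at hand, so it is no independent check on the replicates.

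Of the replicate peaks on III, 248 of replicate 1 (13.1%) and 152 of replicate 2 (8.90%) overlapped no series-wide peak. None of these 248 or 152 overlapped the other replicate. The best-scoring of them was at 9565985 to 9566161 in replicate 1, with a score of 13.9 and rank 700 on III, and at 4762898 to 4763082 in replicate 2, with a score of 13.2 and rank 507.

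The 10 best-scoring sites of III found in both replicates were spread over the chromosome, 3 on the left arm, 4 in the centre and 3 on the right arm. Their series-wide scores ran from 72.9 to 79.9, and their widths from 377 to 1778 bp with a median of 606 bp, against 251 bp for all peaks of III. The best-scoring, at 3854835 to 3855337, ranked 2 on III with a score of 119 in replicate 1, and 77 with a score of 41.4 in replicate 2. Its neighbour at 3856824 to 3857456 ranked 1 with a score of 120, and 27 with a score of 59.1, so the 2 highest replicate 1 scores of the chromosome lay side by side just inside the centre.

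The site at 10633779 to 10634960 stood highest in both libraries together. It was 1182 bp wide, a single peak in each replicate, rank 3 with a score of 114 in replicate 1 and rank 1 in replicate 2 with a score of 104. Those at 4369341 to 4369789 (ranks 8 and 5) and 1418548 to 1419125 (ranks 9 and 8) were also among the 10 highest in each replicate. The site at 13642715 to 13644492, 1778 bp wide, ranked 7 and 11 and was called as 2 peaks in replicate 1 and 3 in replicate 2.

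Among the remaining sites of the 10, that at 5308262 to 5308957 ranked 4 in replicate 1 and 158 in replicate 2, the widest spread of ranks among the 10, and that at 12598100 to 12598666 ranked 16 and 77. The reverse held at 1436702 to 1437078, which ranked 97 in replicate 1 and 4 in replicate 2. The site at 1618661 to 1619371 ranked 21 and 7. All 3 of the left-arm sites ranked higher in replicate 2 than in replicate 1, whereas 3 of the 4 centre sites ranked higher in replicate 1. The lists differ in length, so these ranks order sites within a library and measure no change between libraries.

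The peaks of III were narrow, with a median width of 261 bp (quartiles 193 and 391) in replicate 1. It was 215 bp (170 and 319) in replicate 2 and 251 bp (183 and 398) in the series-wide list. Series-wide medians on the other chromosomes ran from 242 bp on X to 259 bp on IV. The narrowest peak of III was 146 bp in each list. In each list the centre had the widest peaks, with medians of 270 bp in replicate 1, 222 in replicate 2 and 269 in the series-wide list. The left arm had 253, 207 and 229 bp and the right arm 252, 214 and 243 bp. Peaks of 800 bp or more numbered 73 in replicate 1, 28 in replicate 2 and 94 in the series-wide list (4.05%). The widest series-wide peak, at 13069860 to 13072417, measured 2558 bp and was 1 peak in each replicate, with ranks 19 and 6. The next were at 348128 to 350551 (2424 bp), 4017974 to 4020232 (2259 bp), 4280782 to 4282908 (2127 bp) and 12367826 to 12369739 (1914 bp). That at 4280782 was 1 peak in replicate 1 and 4 in replicate 2.

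**Figure D4:**
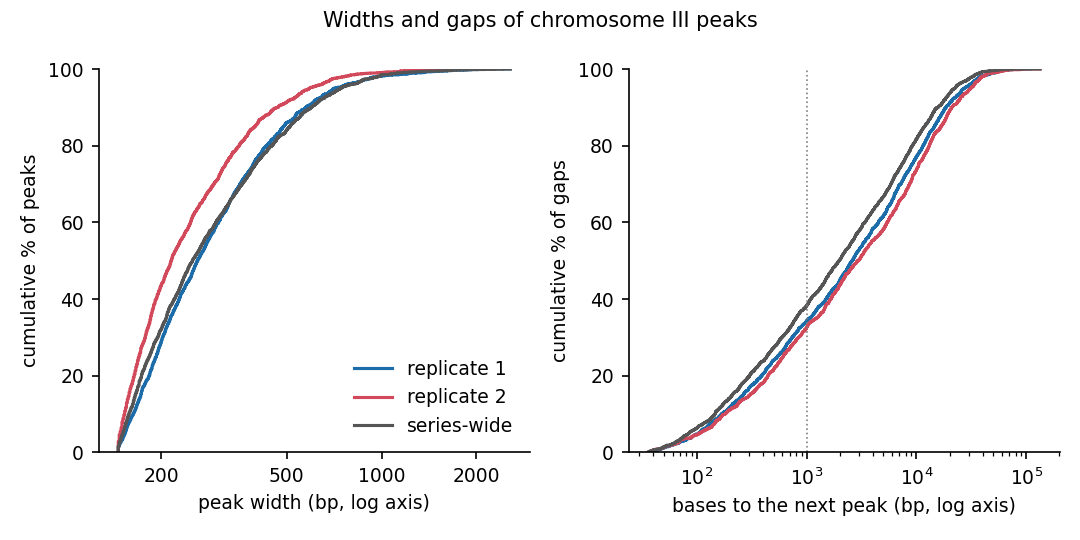
Cumulative share (y axis, %) of chromosome III peaks by width in bp (left, log axis) and of the gaps between neighbouring peaks by length in bp (right, log axis, dotted line at 1000 bp) in each peak list. Replicate 2 peaks are the narrowest, with a median of 215 bp, and series-wide gaps the shortest, with 38.2% under 1000 bp.

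Neighbouring HDA-1 peaks on III had a median gap of 2600 bp in replicate 1. It was 2949 bp in replicate 2 and 1979 bp in the series-wide list. Gaps under 1 kb were 34.2%, 32.5% and 38.2% of all gaps. On the other chromosomes the series-wide share ran from 32.5% on X to 37.7% on II. When peaks less than 1 kb apart were joined, the 2323 series-wide peaks formed 1435 sites, of which 957 were single peaks and 53 held 5 or more. Joined sites held 58.8% of the peaks, 54.1% on the left arm, 59.0% in the centre and 61.7% on the right arm. Being found again differed little with spacing: 46.0% of peaks with a neighbour within 1 kb were found in both replicates (43.3 to 48.7%), as were 42.5% of those with the nearest at 1 to 10 kb (39.2 to 45.9%) and 46.5% of the 99 with none within 10 kb (36.4 to 56.8%).

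The tightest group of III was on the left arm from 1920938 to 1940937, a window of 20 kb with 22 series-wide peaks, 9 of replicate 1 and 20 of replicate 2. Peaks covered 41.2% of it. Of the 22, 8 were found in both replicates, 13 in replicate 2 only, 1 in neither and 0 in replicate 1 only. The scores in it ran to 62.4 in the series-wide list, 52.9 in replicate 1 and 53.1 in replicate 2, with medians of 18.1 over the 9 replicate 1 peaks and 12.3 over the 20 replicate 2 peaks. Its right part, from 1936603 to 1940199, packed 10 series-wide peaks into 3597 bp, with midpoints a median of 308 bp apart. The other left-arm group, from 58803 to 78802, had 16 series-wide peaks with 7 in replicate 1 and 15 in replicate 2.

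The groups in the centre had more replicate 1 than replicate 2 peaks. From 7709955 to 7729954 there were 18 series-wide peaks with 18 in replicate 1 and 16 in replicate 2, of which 12 were found in both, the most even of the 5 tightest groups. Its peaks covered 42.4% of the 20 kb. The group from 5832316 to 5852315 had 17 series-wide peaks, 16 in replicate 1 and 7 in replicate 2, and 10 of its 17 were found in replicate 1 only. That from 10318351 to 10338350, which ends at the border of the right arm, had 18, 13 and 10. The longest runs with every gap under 1 kb overlapped a pair of these centre groups and held 13 series-wide peaks each, from 5835181 to 5844212 and from 7720783 to 7731871. Runs of 10 lay at 1936603 (above), at 9700013 to 9705388 and at 13716097 to 13724556.

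**Figure D5:**
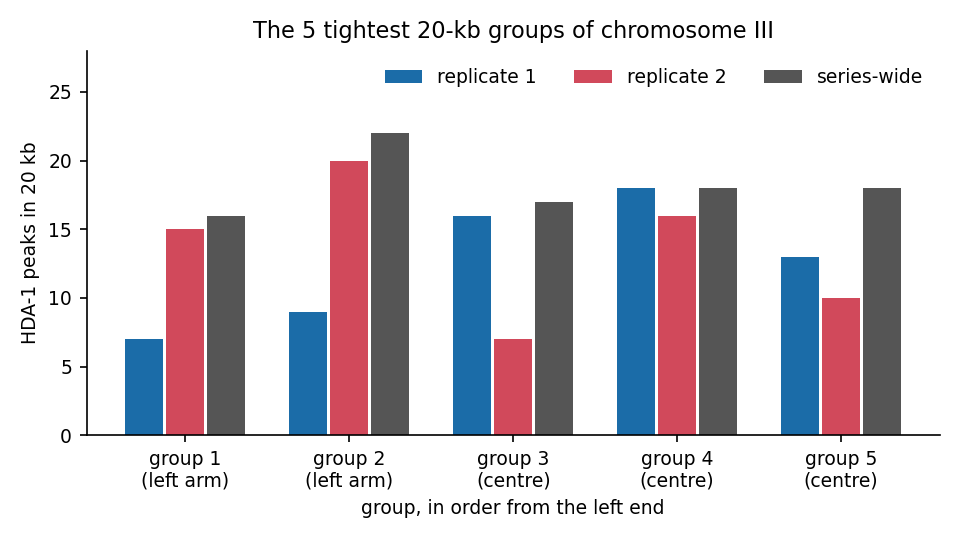
Number of HDA-1 peaks (y axis) in the 5 tightest 20-kb windows of chromosome III (x axis, in order from the left end) in each peak list; bars are counts. Replicate 2 has more peaks than replicate 1 in both left-arm groups (15 against 7 and 20 against 9), and replicate 1 has more in the 3 centre groups (16 against 7, 18 against 16 and 13 against 10).

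A pair of runs belonged to 1 library alone. These were looked for after the values were seen, among runs of 5 or more peaks of one replicate that held none of the other. Replicate 2 had its longest run on the right arm at 13584208 to 13598876, with 16 peaks in 14669 bp that covered 79.7% of it, and replicate 1 had 0 peaks there. The peaks were wide, with a median of 602 bp and a maximum of 2056 bp, and low in score, from 2.02 to 9.63. The series-wide list had 14 peaks in this stretch. In the centre, at 6569256 to 6574387, replicate 1 had 9 peaks with scores of 2.87 to 8.36, replicate 2 had 0 and the series-wide list had 0. No read counts were at hand for either stretch, so the coverage behind these differences is unknown.

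Long gaps took up more of the left arm in the series-wide list, the only list for which they are given by region. The replicates differed in median gap. On the left arm and in the centre it was 4690 and 2358 bp in replicate 1, and 2900 and 3317 bp in replicate 2. Gaps of 20 kb or more made up 46.0% of the left arm, 30.3% of the centre and 27.5% of the right arm in the series-wide list, 149 gaps in all, of which 48, 68 and 33 lay wholly within a region. The longest ran from 1284867 to 1418287, 133 kb, and held 1 replicate 1 peak with a score of 7.87 and 0 of replicate 2. It ended beside a strong site: a low-scoring peak found in neither replicate began at 1418288, followed by the site at 1418548 to 1419125, the second best-scoring of III. The next gap, from 2210283 to 2299041, measured 88.8 kb and held 2 replicate 1 peaks and 0 of replicate 2. The others of the 5 longest were in the centre, from 6722504 to 6795366 (72.9 kb), 7387698 to 7452476 (64.8 kb) and 9956964 to 10016690 (59.7 kb), and no replicate peak lay wholly inside any of these.

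Peaks at the outermost bases of III were found in replicate 1 alone. Its first peak ran from base 1 to 211 with a score of 2.71, and its last from 13783494 to 13783700 with a score of 6.06. The first peak of replicate 2 began at 14307 and that of the series-wide list at 14311, and their last peaks ended at 13782820 and 13782809. Those last peaks scored 33.7 in replicate 2 and 18.4 in the series-wide list. A peak at base 1 was found on all 6 chromosomes in replicate 1 and on 0 of 6 in replicate 2 and in the series-wide list. The ends of C. elegans chromosomes carry telomeric repeats, and whether these end peaks hold repeat sequence was not examined here.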

How the data were processed

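ChIP-seq peak lists of HDA-1 were used, 1 for each of 2 ChIP libraries and 1 for the whole series. Per the file headers, the authors called the peaks with MACS on WormBase WS220. BWA and ce10 are named in the submitters' processing notes. The deposited values are the first and last base of each peak and a score, and its meaning, threshold and control library are not stated in any source at hand. The lists hold no read counts, so the depth behind a peak is unknown, and a deeper library would be expected to give a longer list.

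Peaks were assigned to regions by their midpoint. Sharing at least 1 bp made peaks of different lists the same site. Intervals are exact 95% intervals, Clopper-Pearson for shares and Poisson for densities. The named sites were the 10 best-scoring found in both replicates, the 5 tightest 20-kb windows, the 5 longest gaps, the 5 widest peaks, the 5 longest runs, and the 3 densest and 3 sparsest complete 1-Mb bins. The chromosome, these rules and the comparisons were chosen with earlier results of these data known. Code was checked on simulated lists. Sequences and genes were not used, since no genome of this build was at hand. Values were computed in Python 3.11.15 with SciPy 1.17.1, pandas 2.3.3 and NumPy 2.4.6, and plots drawn with matplotlib 3.10.9.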

Additional observations from a re-analysis of the deposited data

How the results depend on the processing

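For 13 results on III, 59 alternative values were computed. Of these, 35 moved by less than the spread between replicates or the counting interval, 21 moved by more and 3 reversed. The 35 include values for the span from first to last peak. That span equals the one used, because a replicate 1 peak starts at base 1, so those values could not move. The spread between replicates is widest where they disagree, at 0.49 in log2 for arms to centre and 0.61 for left arm to centre. A value counted as unmoved there can still differ much. Leaving out 1 replicate meant using the list of the other, and these lists also set that spread. The 11 alternatives for recurrence in centre against arms and for covered bases were added after the data were examined. The log2 ratio of arms to centre reversed between the replicates (-0.53 to 0.15). That of the right arm to the centre, 0.085 as reported, ranged from -0.25 in replicate 1 to 0.31 in replicate 2, and was -0.16 in the better-scoring 50% of each list. The left arm stayed below the centre under every alternative tried, from -0.89 in replicate 1 to -0.022 in replicate 2. In replicate 2 the counting interval ran from -0.20 to 0.15, so that library showed no clear difference. With the better-scoring 50%, III had 88.6 peaks per Mb, a log2 ratio to the other autosomes of 0.38, 22.2% of gaps under 1 kb, a median width of 344 bp, and 68.9% of replicate 2 peaks recurring. Merging peaks closer than 1 kb gave 104.1 sites per Mb and a log2 ratio to the other autosomes of 0.27. The replicates alone ranged from 124 to 138 peaks per Mb, from 0.32 to 0.37 in that ratio, from 32.5 to 34.2% of gaps under 1 kb and from 215 to 261 bp in width. Midpoints within 100 bp lowered recurrence to 42.6% of replicate 1 peaks and 47.3% of replicate 2 peaks, the share found in both to 33.4% and the excess of centre over arms in replicate 2 to 19.4 points. Regions of equal length gave 23.4 points there, and 0.49 for the difference between replicates in the log2 ratio of arms to centre. With 1707 peaks of III in each replicate, 59.2% and 62.9% recurred. The causes were not tested. No paired analysis was possible because only the ChIP group has peak lists, and the inputs with the same numbers were not analysed here. Without read counts, a site missing from one list cannot be told from a site just under its threshold.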
